A study of Caenorhabditis elegans with 10 samples.

Results

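The genes described here are 10 genes of the *C. elegans* DNA damage checkpoint and of double-strand break repair, taken by their WormBase gene names from the table of normalized read counts. Of the 10, 8 had a row among the 15106 genes of that table: the sensors *hus-1* and *mrt-2*, the kinases *chk-1* and *chk-2*, the p53-like factor *cep-1*, and the repair genes *brc-1*, *brd-1* and *rad-51*. The BH3-only genes *egl-1* and *ced-13*, which *cep-1* switches on, were not analysed here.

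RNA was sequenced from whole young adult animals of 4 strains, in 10 libraries. The strains were *clk-2*, a temperature-sensitive mutant (allele *qm37* where the study plots these data), *smg-1(rrr59)* and *smg-2(rrr60)*, both mutants of nonsense-mediated decay isolated in a mutagenesis screen with a fluorescent reporter, and N2, the wild type. Each strain gave 2 libraries at 20°C, and *clk-2* and N2 each gave 1 further library after 3 hours at 25°C, a step that the labels call heat shock. Where the study plots these data it calls 20°C permissive and 25°C restrictive for *clk-2(qm37)*, while its methods name a lower permissive temperature. It reports a modest rise of its decay targets in *clk-2* at 20°C and a stronger one at 25°C. All tests below are at 20°C, so they do not cover *clk-2* at the restrictive temperature. The strain list gives *smg-1* and *smg-2* a *gfp* reporter and *clk-2* an *mCherry* and *gfp* reporter, all driven by the ubiquitous *dpy-30* promoter, and N2 none, so strain and transgene cannot be told apart. In the table the *clk-2* columns carry a name that joins those of both temperature-sensitive *clk-2* alleles of the study, which fits the name of none of the other strains, and they were taken as *clk-2* on that ground.

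CLK-2 is the worm member of the TEL2 family, proteins that in yeast and mammalian cells keep the large kinases ATM, ATR and SMG-1 stable, and *clk-2* mutants are known for failing to arrest the cell cycle or trigger germ cell death after DNA damage. In the checkpoint pathway, the ring-shaped clamp of HUS-1, MRT-2 and HPR-9 marks damaged DNA, kinases of the ATM and ATR type signal through CHK-1, and CEP-1 turns on the BH3-only genes that start apoptosis in the germ line. BRC-1 and BRD-1 form a ubiquitin ligase, and RAD-51 coats single-stranded DNA for repair by recombination.

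Library totals ran from 3051836 to 14209955 reads, and the *clk-2* replicates were unequal, with 3523986 and 14209955 reads. The 8 genes were covered by 47 to 1355 reads each per library, the lowest being *mrt-2* in *clk-2* at 25°C. The mRNA of *clk-2* itself was 497.0 and 670.0 normalized read counts in *clk-2* at 20°C, against 598.4 and 484.9 in N2. It was thus no marker of the mutant libraries. The labels do not say whether replicates came from separate cultures, so the p-values below measure only the spread between these libraries. With 2 libraries against 2, an exact permutation test of a single gene cannot go below a two-sided p of 0.333, and tests were therefore taken from a limma fit across 13869 genes, with a gene called at an adjusted p under 0.05. Values are normalized read counts, in which the authors divided reads by a size factor per library. In whole animals, fewer cells of a type and less RNA per cell cannot be told apart.

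In *clk-2* at 20°C, plotted by the study as permissive, none of the 8 genes was called different from N2. At that temperature *chk-1*, *cep-1* and *brc-1* were called higher in *clk-2* than in *smg-1*, and *chk-1* was also called higher than in *smg-2*. At 25°C no gene of the 8 differed by 2-fold between the *clk-2* and the N2 library. The lowest gene of the set in *clk-2* relative to N2 at either temperature was *chk-2*, whose difference did not pass the test at 20°C.

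**Figure D1:**
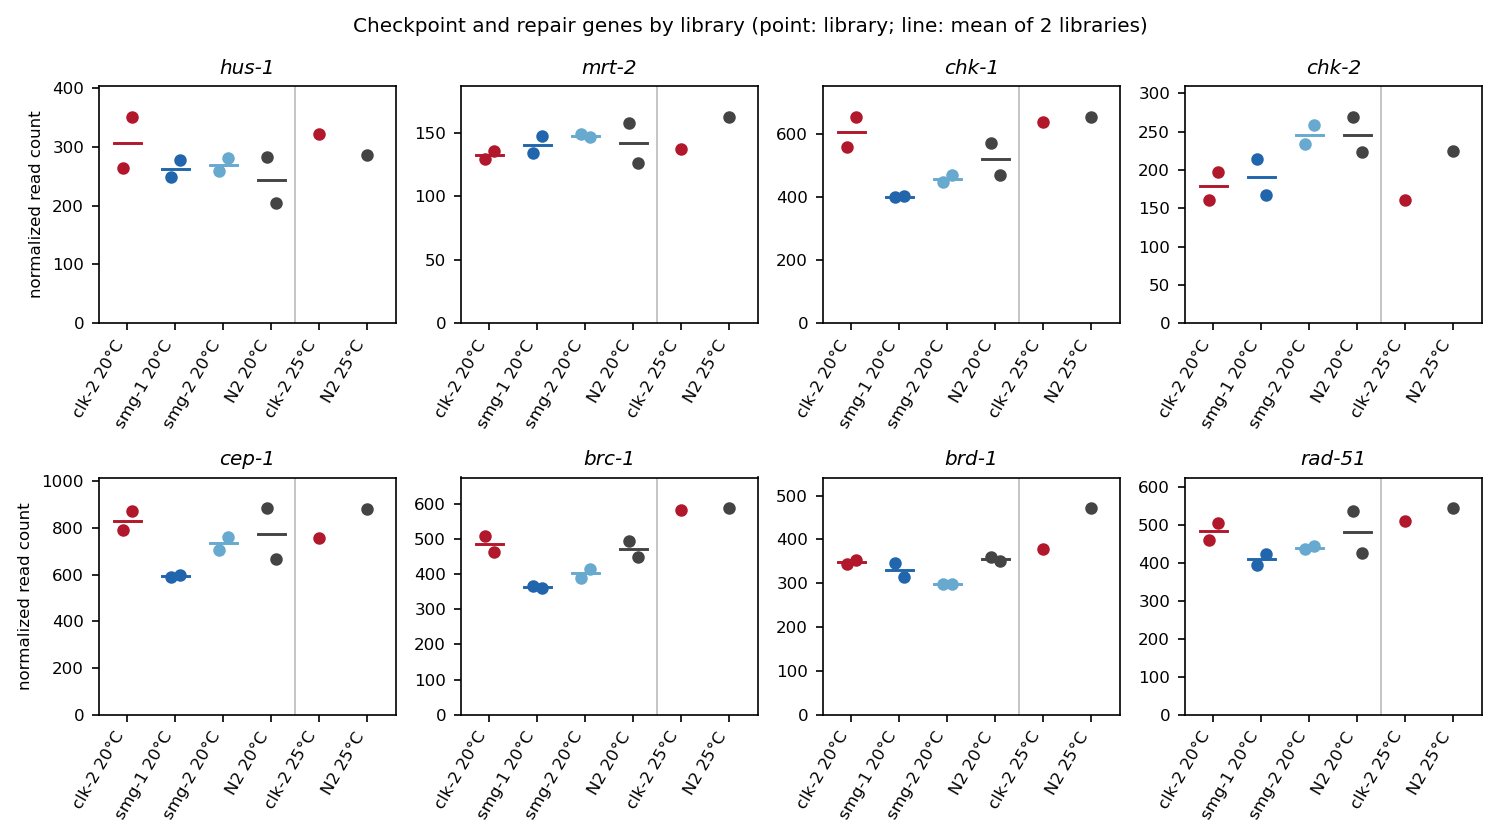
Normalized read count (vertical axis, from 0) of each of the 8 genes in the 10 libraries, by strain and temperature (horizontal axis). Each point is a library, the lines are means of 2 libraries, and the grey line separates the unreplicated libraries at 25°C. The *chk-1* points of *smg-1*, at 398.2 and 400.8, lie below all the other points of that panel.

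The sensors come first. *hus-1* (WBGene00002042, chromosome I, 3698102 to 3699300, plus strand, WBcel235) had 264.0 and 351.1 normalized read counts in *clk-2*, against 282.7 and 205.4 in N2. The deeper *clk-2* library was above both N2 libraries and the other lay between them, and the fitted log2 fold change of 0.34 (SE 0.19, n = 2 each) was not called (limma, adjusted p = 0.226). In the *smg* mutants *hus-1* had 248.1 and 277.5 in *smg-1* and 259.5 and 280.5 in *smg-2*, all inside the N2 range. *mrt-2* (WBGene00003417, chromosome III, 11746766 to 11750175, plus strand), the clamp subunit related to human RAD1, was the least abundant of the 8 by count. It had 129.4 and 135.7 in *clk-2*, 134.2 and 147.3 in *smg-1*, 148.9 and 147.0 in *smg-2*, and 157.8 and 126.5 in N2. The N2 libraries spanned every other value at 20°C, and the log2 fold change of *clk-2* against N2 was -0.09 (SE 0.17, adjusted p = 0.732, limma).

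The kinases differed from each other in how they varied. *chk-1* (WBGene00000498, chromosome V, 3757153 to 3759469, minus strand), the effector kinase of the checkpoint, had 556.5 and 651.4 normalized read counts in *clk-2*, 398.2 and 400.8 in *smg-1*, 446.0 and 468.1 in *smg-2*, and 568.9 and 467.7 in N2. The strains at 20°C thus ran in the order *clk-2*, N2, *smg-2*, *smg-1* by mean. Of the neighbours in that order, *clk-2* and N2 overlapped, N2 and *smg-2* overlapped narrowly, and *smg-1* lay below *smg-2* without overlap. The log2 fold change of *clk-2* was 0.59 (SE 0.13, adjusted p = 0.00596) against *smg-1*, 0.40 (SE 0.13, adjusted p = 0.0403) against *smg-2*, and 0.22 (SE 0.13, adjusted p = 0.255) against N2, in limma.

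*chk-2* (WBGene00000499, chromosome V, 19908086 to 19916023, minus strand), which in the worm germ line is needed for chromosome pairing and for making meiotic breaks, went the other way. It had 160.5 and 198.0 in *clk-2* and 269.4 and 223.3 in N2, so both *clk-2* libraries were below both N2 libraries. The log2 fold change was -0.46 (SE 0.18, 95% interval -0.86 to -0.052, unadjusted p = 0.0308), and with an adjusted p of 0.0896 in limma it was not called. *smg-1*, with 215.1 and 167.9, overlapped *clk-2*, and *smg-2*, with 234.1 and 258.8, lay within the N2 range. Against *smg-2* the log2 fold change of *clk-2* was also -0.46, with an adjusted p of 0.069 in limma, and it was called without *clk-2* replicate 2 (adjusted p = 0.0492) or N2 replicate 2 (adjusted p = 0.0481). *chk-2* shares 21 exonic nucleotides with an annotated antisense ncRNA, and the strand setting of the counting is not given in the sources used here. The other 7 genes share no exonic base with another annotated gene.

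*cep-1* (WBGene00000467, chromosome I, 8324286 to 8328859, plus strand), the p53-like transcription factor, had the highest counts of the 8. It had 789.5 and 871.3 normalized read counts in *clk-2*, against 883.8 and 666.0 in N2. Both *clk-2* values lay within the N2 range, and the log2 fold change was 0.11 (SE 0.14, adjusted p = 0.602, limma). *smg-1* was lower than *clk-2*, with 589.9 and 597.8, and the log2 fold change of *clk-2* against it was 0.48 (SE 0.14, adjusted p = 0.0203, limma). *smg-2*, with 706.2 and 762.1, fell between the N2 libraries and below both *clk-2* libraries, with a log2 fold change of *clk-2* against it of 0.18 that was not called.

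Among the repair genes, *brc-1* (WBGene00000264, chromosome III, 3853102 to 3862968, minus strand), related to human BRCA1, had 507.3 and 462.3 in *clk-2*, 367.3 and 361.4 in *smg-1*, 389.0 and 415.9 in *smg-2*, and 493.1 and 449.7 in N2. All 4 *smg* libraries were below all 4 *clk-2* and N2 libraries. The log2 fold change of *clk-2* was 0.41 (SE 0.12, adjusted p = 0.0191) against *smg-1*, 0.27 (adjusted p = 0.101) against *smg-2* and 0.04 (SE 0.12, adjusted p = 0.837) against N2, in limma. Its partner *brd-1* (WBGene00000265, chromosome III, 6885207 to 6889504, minus strand), related to human BARD1, had 344.3 and 353.6 in *clk-2*, 347.1 and 314.3 in *smg-1*, 298.4 and 298.7 in *smg-2*, and 360.6 and 350.6 in N2. It had the narrowest spread between replicates in *clk-2*, *smg-2* and N2 of the 8 genes, and no comparison called it. *rad-51* (WBGene00004297, chromosome IV, 10281634 to 10284244, minus strand), the strand-exchange recombinase, had 460.8 and 505.4 in *clk-2*, 395.0 and 422.3 in *smg-1*, 435.3 and 443.0 in *smg-2*, and 536.6 and 424.8 in N2. Both *smg-1* libraries were below all the others at 20°C, and the log2 fold change of *clk-2* against *smg-1* of 0.24 was not called (adjusted p = 0.183, limma).

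Against N2 at 20°C, limma called 0 of the 8 genes in *clk-2*, where 28.1% of all genes tested were called, 12.2% higher and 15.8% lower. At an unadjusted p under 0.05 there was 1, *chk-2*, and edgeR and DESeq2 on recovered reads also called 0. The only gene whose *clk-2* and N2 libraries did not overlap was *chk-2*, where 28.9% of all genes lay wholly below N2 and 29.9% wholly above. The 95% intervals of the 8 fold changes together reached down to 0.549-fold and up to 1.70-fold. The median log2 fold change was 0.028 over the 8 genes and 0.018 over all genes tested. The sperm markers moved strongly in the same comparison: 33 of 35 were called lower, and their summed level was 7041 and 7167 in *clk-2*, against 24166 and 30819 in N2. The summed level of 12 germ cell markers was 19546 and 20893 in *clk-2* and 26766 and 22329 in N2. Of these 12, *glh-1* was called lower, with a mean of 5208 in *clk-2* and 8509 in N2. *syp-2* was called higher, 10 were not called, and the median log2 fold change was -0.16. The oocyte markers went the other way, with 10 of 10 above 0, 1 called higher and a median of 0.26. Of 12 S phase genes, 8 were above 0 and 2 were called higher. The part of these lists in the *chk-2* difference was not tested.

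**Figure D2:**
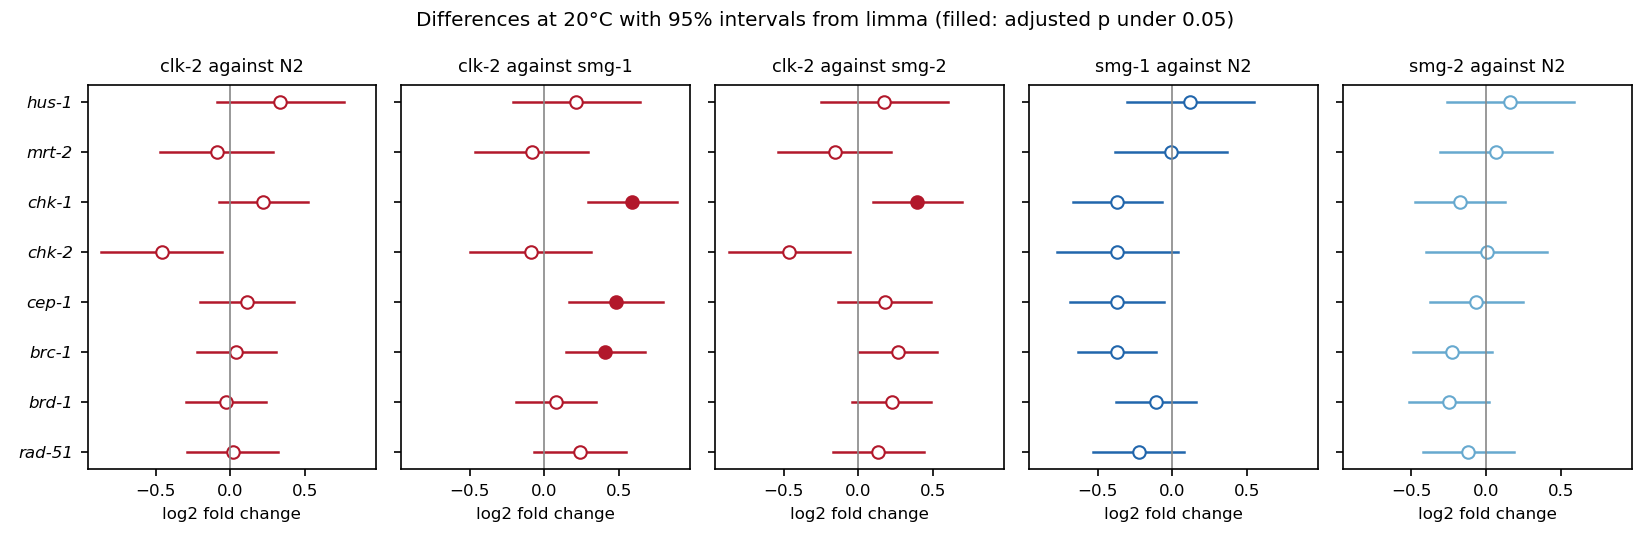
Log2 fold change (horizontal axis, points) with its 95% interval from limma (bars) for each of the 8 genes (rows) in 5 comparisons of strains at 20°C, 2 libraries each. Filled points are the 4 calls: *chk-1*, *cep-1* and *brc-1* against *smg-1*, and *chk-1* against *smg-2*.

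Against *smg-1*, 3 of the 8 genes were called higher in *clk-2* and 0 lower, where 42.9% of all genes tested were called, 18.8% higher and 24.1% lower. The *clk-2* libraries lay wholly above the *smg-1* libraries for 4 of the 8 genes and wholly below for 0, against 36.5% and 36.4% of all genes. The median log2 fold change was 0.23 over the 8 genes and 0.014 over all genes. The *chk-1* call was made in 19 of 19 alternatives that use an adjusted p, although none of the 8 genes met a 2-fold rule, while without either single *smg-1* library only *chk-1* was called. *cep-1* also lost its call without *clk-2* replicate 2 (adjusted p = 0.0945) and *brc-1* without *clk-2* replicate 1 (adjusted p = 0.0806, limma). Against *smg-2*, 1 of the 8 genes was called higher and 0 lower, where 38.7% of all genes were called, 15.8% higher and 22.9% lower. The *clk-2* libraries lay wholly above *smg-2* for 5 genes and wholly below for 2, against 35.6% and 36.7% of all genes. This *chk-1* call was lost without *clk-2* replicate 2 or without any single *smg* library, with adjusted p-values up to 0.192, and under the replicate block (adjusted p = 0.0622, limma).

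The oocyte and S phase lists differed in the same direction, the germ cell markers did so in part, and the sperm markers went the other way. All 10 oocyte markers were called higher in *clk-2* than in *smg-1* and 9 of 10 were called higher than in *smg-2*, where all 10 had a log2 fold change above 0. Their summed level was 33073 and 43550 in *clk-2*, 19471 and 17519 in *smg-1*, 24515 and 25939 in *smg-2*, and 37693 and 29774 in N2. Of 12 S phase genes, 10 were called higher than in *smg-1* and 8 than in *smg-2*, and all 12 had a log2 fold change above 0 in both comparisons. Their summed levels were 16639 and 20904 in *clk-2*, 11370 and 10471 in *smg-1*, 12661 and 12849 in *smg-2*, and 17175 and 14945 in N2. No marker of either list was at 0 in any library. Of 12 germ cell markers, 4 were called higher and 1 lower than in *smg-1*, with summed levels of 19546 and 20893 in *clk-2* and 20172 and 19700 in *smg-1*. Against *smg-2*, 3 were called higher and 1 lower. Their log2 fold changes were above 0 for 8 of 12 against each *smg* mutant, with medians of 0.24 against *smg-1* and 0.042 against *smg-2*. Of 35 sperm markers, 32 were called lower in *clk-2* than in each *smg* mutant, and all 35 had a log2 fold change below 0. The part of these lists in the *chk-1*, *cep-1* and *brc-1* differences was not tested.

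The *smg* mutants share the N2 libraries with *clk-2* in their own comparisons. In *smg-1* against N2 limma called 0 of the 8 genes, where 21.5% of all genes were called, 12.3% higher and 9.25% lower, and edgeR and DESeq2 called 0. At an unadjusted p under 0.05 there were 3: *brc-1* (log2 fold change -0.37, adjusted p = 0.0511), *chk-1* (-0.37, adjusted p = 0.0783) and *cep-1* (-0.37, adjusted p = 0.0895). The *smg-1* libraries lay wholly below the N2 libraries for 6 of the 8 genes and wholly above for 0, against 32.6% and 30.0% of all genes tested, and the median was -0.30 over the 8 genes and -0.023 over all genes. Without N2 replicate 2, the lower N2 library for all 8 genes, those 3 genes were called lower in *smg-1*, and without either *clk-2* library *brc-1* alone was. In the same comparison all 10 oocyte markers and 8 of 12 S phase genes were called lower. So were 19 of 35 sperm markers, 4 of 12 germ cell markers and 3 of 10 somatic markers. Called higher were 1 sperm marker and 1 somatic marker. The part of these lists in it was not tested. In *smg-2* against N2 limma, edgeR and DESeq2 each called 0 of the 8 genes, where limma called 9.10% of all genes, 8.12% higher and 0.981% lower, and 0 genes had an unadjusted p under 0.05. The largest differences there were *brd-1* at -0.25 (adjusted p = 0.266) and *brc-1* at -0.23 (adjusted p = 0.310, limma), and the *smg-2* libraries lay wholly below N2 for 2 genes, against 26.1% of all genes, and 25.4% of all genes lay wholly above.

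N2 had the widest gap between replicates for 5 of the 8 genes, the exceptions being *chk-2*, *brc-1* and *brd-1*. N2 replicate 1 was higher than N2 replicate 2 for 8 of 8 genes, against 49.5% of all genes tested, by 2.84% for *brd-1* at the least and 37.7% for *hus-1* at the most. *clk-2* replicate 2, the deeper library, was the higher one for 7 of 8 genes, against 47.6% of all genes. The oocyte markers followed the same order in both strains, and their part was not tested.

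At 25°C there was 1 library a strain and no test. The intervals given for the log2 ratio of the *clk-2* library to the N2 library are exact 95% intervals for counting error only. *hus-1* had 321.9 in *clk-2* and 285.5 in N2, a log2 ratio of 0.17 (-0.15 to 0.49), and it was the only one of the 8 above 0. *chk-2* had 161.0 in *clk-2* and 225.0 in N2, a log2 ratio of -0.48 (-0.93 to -0.060). This is the same side as at 20°C, where the 4 pairs of single libraries gave -0.74 to -0.17.

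*cep-1* had 755.0 in *clk-2* and 879.9 in N2, a log2 ratio of -0.22 (-0.42 to -0.023). *brd-1* had 377.5 in *clk-2* and 470.7 in N2, a log2 ratio of -0.32 (-0.61 to -0.040), whereas at 20°C its 4 pairs had lain within -0.066 and 0.013. With *chk-2*, these are the 3 genes whose counting interval did not include 0. How large a share of all genes had such an interval was not counted. Replicates at 20°C spread by more than counting error, with a chi-square per degree of freedom of 7.96 in *clk-2* and 21.6 in N2. The remaining ratios were -0.24 (-0.73 to 0.22) for *mrt-2*, -0.039 (-0.26 to 0.18) for *chk-1*, -0.011 (-0.25 to 0.22) for *brc-1* and -0.092 (-0.34 to 0.15) for *rad-51*. Of the 8 genes, 7 had a log2 ratio below 0, where 55.5% of all genes did, and 0 were 2-fold apart, where 12.7% of all genes were 2-fold higher and 6.19% 2-fold lower. The median log2 ratio was -0.16 over the 8 genes and -0.067 over all genes. In the same libraries 9 of 10 oocyte markers, 12 of 12 S phase genes, 12 of 12 germ cell markers and 34 of 35 sperm markers were lower in *clk-2*, with median log2 ratios of -0.33, -0.22, -0.42 and -1.41 in that order. The summed oocyte level was 32376 in *clk-2* and 41600 in N2, and that of the germ cell markers 19318 in *clk-2* and 25017 in N2. The part of these lists was not tested.

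**Figure D3:**
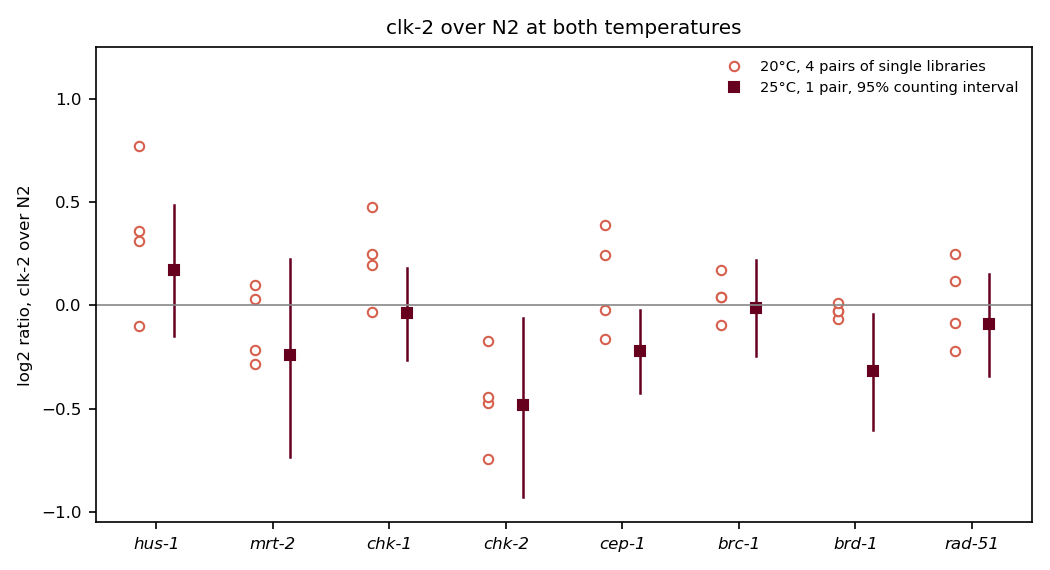
Log2 ratio of *clk-2* over N2 (vertical axis) for each of the 8 genes (horizontal axis). Open circles are the 4 pairs of single libraries at 20°C, and squares are the 1 pair at 25°C with its 95% counting interval. All 5 marks of *chk-2* are below 0, and the *brd-1* square lies below its 4 circles.

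Each strain was also set against its own libraries at 20°C. The N2 library at 25°C was above both N2 libraries at 20°C for *hus-1*, *mrt-2*, *chk-1*, *brc-1*, *brd-1* and *rad-51*, with log2 ratios to their mean of 0.19 (*rad-51*) to 0.40 (*brd-1*). The *clk-2* library at 25°C was above both of its own for *mrt-2*, *brc-1*, *brd-1* and *rad-51*, with 0.053 (*mrt-2*) to 0.27 (*brc-1*), and below both for *cep-1*, with -0.14. The *mrt-2* ratio was -0.044 after quantile normalization. For neither strain was the share of all genes above or below both libraries at 20°C counted, so these counts have no background beside them. *chk-2* was on the low side in both strains, at -0.15 in *clk-2* and -0.12 in N2, inside the range at 20°C. In all, 6 of 8 genes in *clk-2* and 7 of 8 in N2 had ratios above 0. Below 0 were 2 of 8 in *clk-2* and 1 of 8 in N2, against 48.6% and 50.1% of all genes. None of the 8 genes moved by 2-fold with temperature in either strain, where 3.78% of all genes were 2-fold higher and 3.01% lower in *clk-2*, and 1.18% higher and 3.09% lower in N2. The oocyte markers had ratios above 0 for 1 of 10 in *clk-2* and 10 of 10 in N2, and their part was not tested.

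Compared per kilobase of exon, *chk-2* had the lowest level of the 8 genes in all 6 groups, with 70.8 normalized read counts per kilobase in *clk-2* at 20°C and 97.3 in N2 at 20°C. *mrt-2* was next, with 109 in *clk-2* and 117 in N2. The top of the order was not fixed: *chk-1* led in *clk-2* at 20°C with 359, *hus-1* in *smg-1* with 285 and in *smg-2* with 293, and *rad-51* in N2 at 20°C with 314. In N2 at 25°C *chk-1* led with 388. At 20°C the leading gene differed between the 2 libraries of N2 and of *smg-2*. In *clk-2* at 20°C *chk-1* led in both libraries, followed by *rad-51* in replicate 1 and by *hus-1* in replicate 2. Over the 10 libraries the mRNA whose log2 level ran most like that of *chk-1* was *cpg-4* (Pearson r = 0.99, with 681 genes over 0.9), a chondroitin proteoglycan gene. For *brc-1* it was *pqn-80* (0.99), for *cep-1* F01G4.4 (0.98) and for *rad-51* *duo-1* (0.98). The likeness was lower for *brd-1* with *mrpl-38* (0.96), *chk-2* with *ril-1* (0.95), *mrt-2* with *syx-17* (0.94) and *hus-1* with C06H2.7 (0.90). These are descriptions over libraries that share depth and scaling, with the largest values chosen from all genes tested.

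Beyond these 8 genes, 65 other checkpoint and repair genes in 9 lists were read in the same way, of which 64 passed the filter on low values (*rip-1* did not). In *clk-2* against N2 at 20°C, 6 were called higher and 0 lower, where 12.2% of all genes tested were higher and 15.8% lower, so the 6 are no more than the share of all genes. The median log2 fold change of the 64 was 0.084, against 0.018 over all genes. The other sensors and kinases of the pathway were not called: *hpr-9*, the third subunit of the clamp, was at -0.015, and *atm-1* and *atl-1*, the worm ATM and ATR kinases, at -0.069 and -0.094. The apoptosis genes *ced-3*, a caspase, *ced-4*, its activator, and *ced-9*, which holds CED-4 back, were at 0.020, 0.081 and 0.12 and were not called. limma, edgeR and DESeq2 each called 0 of the 64 lower, and 0 were lower at an unadjusted p under 0.05 in limma. edgeR called 5 and DESeq2 2 higher.

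The 2 largest differences were in the pair of genes that start repair of transcribed DNA. *csb-1*, an ATPase of the SNF2 family, had 209.7 and 210.3 normalized read counts in *clk-2*, 115.0 and 105.4 in *smg-1*, 137.5 and 136.2 in *smg-2*, and 114.3 and 100.7 in N2. Both *clk-2* libraries were above all the others at 20°C, and the log2 fold change against N2 was 0.96 (SE 0.16, adjusted p = 0.00170, limma). *csa-1*, a subunit of a ubiquitin ligase, was scarce, with 67.3 and 48.2 in *clk-2*, against 35.1 and 19.5 in N2, and a log2 fold change of 1.09 (SE 0.36, adjusted p = 0.0456, limma). At 25°C the single libraries gave *csa-1* a log2 ratio of 0.71, but *csb-1*, at 155.1 in *clk-2* and 186.8 in N2, was lower in *clk-2*.

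The other 4 called higher in *clk-2* than in N2 were *sws-1*, a partner of the RAD-51 paralogs (0.59, adjusted p = 0.0319), *polq-1*, the polymerase theta of end joining (0.42, adjusted p = 0.0355), *rev-3*, the catalytic subunit of polymerase zeta (0.41, adjusted p = 0.0394), and *slx-1*, a structure-specific nuclease (0.41, adjusted p = 0.0424, limma). The count fell to 1 without *clk-2* replicate 2 or any single *smg* library, to 2 without N2 replicate 2 and to 3 without *clk-2* replicate 1. Without N2 replicate 2, 2 genes were called lower.

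**Figure D4:**
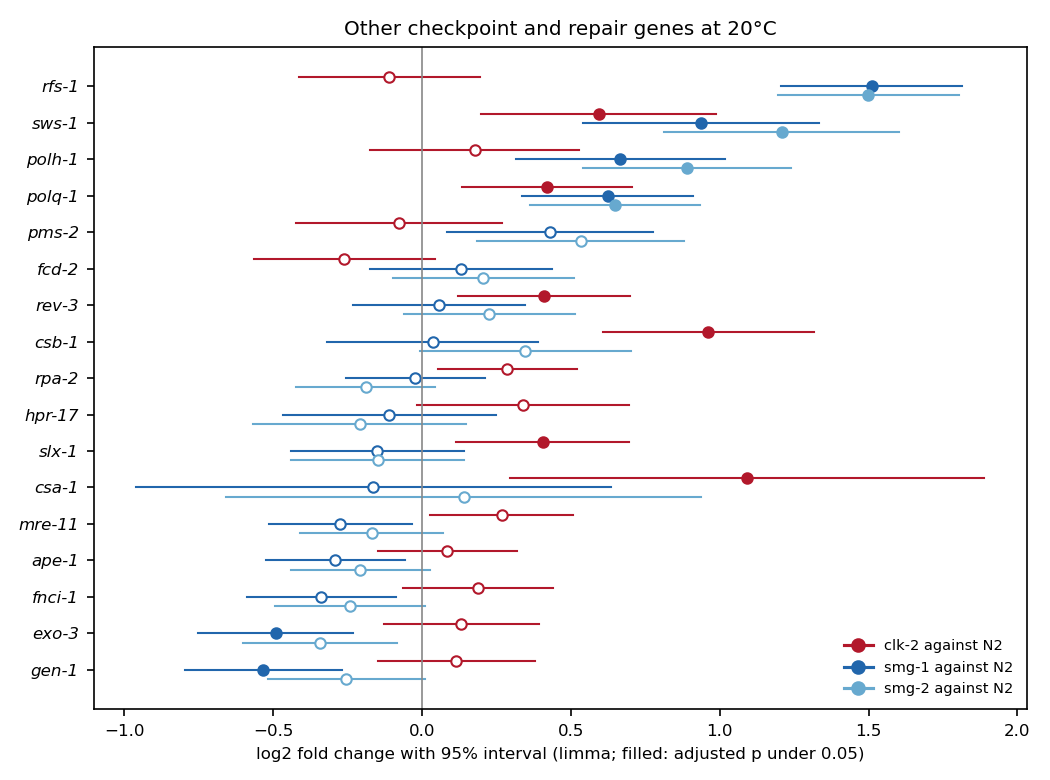
Log2 fold change against N2 at 20°C (horizontal axis) with 95% intervals from limma for 17 other checkpoint and repair genes (rows) in *clk-2*, *smg-1* and *smg-2*, 2 libraries each. Filled points have an adjusted p under 0.05. *rfs-1* stands at 1.51 in *smg-1* and 1.5 in *smg-2* but at -0.11 in *clk-2*, and *csb-1* at 0.96 in *clk-2*.

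Against *smg-1*, 26 of the 64 were called higher in *clk-2* and 4 lower, where 18.8% of all genes tested were higher and 24.1% lower, and the median was 0.31, against 0.014 over all genes. Against *smg-2*, 9 were higher, close to the 15.8% of all genes, and 5 were lower, where 22.9% of all genes were, and the median was 0.21, against 0.0053 over all genes. The lists with the most calls against *smg-1* were homologous recombination, with 10 of 24 higher and 1 lower, nucleotide excision repair, with 4 of 6 higher, and base excision repair, with 4 of 5 higher. The 9 genes higher in *clk-2* than in both *smg* mutants were *csb-1*, *slx-1*, *hpr-17*, the RAD17-type clamp loader, *ape-1*, an inhibitor of CEP-1, *mre-11*, the break-resecting nuclease, *rpa-2*, a single-strand binding protein, *gen-1*, a Holliday junction resolvase, *fnci-1*, a Fanconi gene, and *exo-3*, an endonuclease of base excision repair. How large a share of all genes was called in the same direction against both *smg* mutants was not counted. Among the 9 genes, *mre-11*, for example, had 1822 and 1819 in *clk-2*, 1246 and 1255 in *smg-1*, 1332 and 1359 in *smg-2*, and 1652 and 1384 in N2. *clk-2* was thus above every other library at 20°C, by a log2 fold change of 0.54 (adjusted p = 0.00288) against *smg-1* and 0.44 (adjusted p = 0.0101) against *smg-2*, and of 0.27 against N2 that was not called (adjusted p = 0.0926, limma). The oocyte and S phase lists given above moved the same way, and their part was not tested. These counts varied with single libraries: without *smg-1* replicate 2, 9 were higher than in *smg-1*, and without *smg-2* replicate 2, 0 were higher than in *smg-2*.

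The 4 genes lower in *clk-2* than in both *smg* mutants were *rfs-1*, *polh-1*, *pms-2* and *fcd-2*. *rfs-1*, a RAD-51 paralog that helps RAD-51 filaments form, had 132.0 and 130.5 normalized read counts in *clk-2*, 396.1 and 415.4 in *smg-1*, 380.3 and 426.1 in *smg-2*, and 135.4 and 148.4 in N2. The *smg* libraries stood apart from the others, and the log2 fold change of *clk-2* was -1.62 against *smg-1* and -1.61 against *smg-2* (adjusted p = 2.4e-05 each) and -0.11 against N2 (adjusted p = 0.597, limma). Against N2, *rfs-1* was higher by 1.51 in *smg-1* (adjusted p = 6.1e-05) and by 1.5 in *smg-2* (adjusted p = 6.2e-05, limma). *polh-1*, the polymerase eta of translesion synthesis, was higher than in N2 by 0.67 in *smg-1* (adjusted p = 0.0153) and 0.89 in *smg-2* (adjusted p = 0.00476), with 0.18 in *clk-2* that was not called (limma).

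Both *smg* mutants were called higher than N2 for 4 of the 64 genes, and the remaining pair were *sws-1* and *polq-1*. How large a share of all genes was called higher in both *smg* mutants was not counted. *sws-1* had 121.7 and 151.1 in *clk-2*, 172.5 and 172.2 in *smg-1*, 222.7 and 194.4 in *smg-2*, and 82.8 and 96.8 in N2. The *clk-2* libraries lay between the *smg* and the N2 libraries, and against *smg-2* they were lower by call (log2 fold change -0.61, adjusted p = 0.0206, limma). *polq-1* had 1219 and 1433 in *clk-2*, 1532 and 1515 in *smg-1*, 1577 and 1522 in *smg-2*, and 1103 and 885.4 in N2. It too was intermediate in *clk-2*, with no call against either *smg* mutant. The other calls in *smg-1* against N2 were 12 genes lower, where 9.25% of all genes tested were, of which *gen-1* (-0.53, adjusted p = 0.0117) and *exo-3* (-0.49, adjusted p = 0.0158, limma) are shown in the plot of the wider genes. limma, edgeR and DESeq2 each called 0 wider genes lower in *smg-2* than in N2, and 7 were lower at an unadjusted p under 0.05 in limma. At 25°C, with 1 library a strain, 14 of the 64 had a log2 ratio of *clk-2* to N2 above 0 and 50 below. Their median was -0.16, where 55.5% of all genes were below 0 with a median of -0.067.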

How the data were processed

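Reads of 10 libraries were processed by the authors. According to the submitters' processing notes and the paper, they depleted rRNA, mapped to WBcel235 with STAR 2.5.4a, kept uniquely mapped reads and counted them on exons of protein-coding genes. The labels and the paper name different library kits. What was deposited is a signal for every gene in every library: read counts after the authors divided them by a DESeq2 size factor. Within each library they are whole multiples of 1 step (100% within 0.001 of a whole read), which gave the reads and the depths. All columns had a sample (0 without one).

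The 10 genes were taken by name. The genes and the 9 wider lists were chosen with earlier results of these data known. Symbols were matched for 14720 of 15106 gene IDs, and positions come from Ensembl release 115, which holds 14967 of them. log2(value + 1) of the 8 libraries at 20°C was fitted with limma 3.58.1 (lmFit and eBayes with a trend, R 4.3.3) on the 13869 genes whose mean reached 10, with Benjamini-Hochberg adjustment over all of them. Fold changes are on the log2(value + 1) scale. From the wider lists, the text names the up to 5 highest and 5 lowest calls in *clk-2* against N2 and the genes called in 1 direction against both *smg* mutants. The most similar gene is the one of highest Pearson r over 10 libraries. The remaining genes of the checkpoint and apoptosis lists were named as the other members of the pathway, after their values were seen. At 25°C, log2 ratios of 1 library to another have exact binomial 95% intervals, which cover counting error only.

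Alternatives were pseudocounts of 0.1 and 10, a minimum mean of 100 or none, quantile normalization, TMM factors, edgeR 4.0.16 and DESeq2 1.42.0 on the recovered reads, a replicate block, only the 4 libraries compared, a 2-fold rule with unadjusted p, leaving out each library, and setting *clk-2* at 25°C against N2 at 20°C. A crossed replicate block was added after seeing the data. The scripts were tested on simulated data for *clk-2* against N2 at 20°C, with 1 assumed spread for all genes. There limma recovered 85% of log2 changes of 1.5 but 7% of those of 0.5. At 0.5 edgeR recovered 6% and DESeq2 4%, so changes of that size were mostly missed in the simulation. No sequence was printed, since no sequence table was used here.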

Additional observations from a re-analysis of the deposited data

How the results depend on the processing

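Across the 19 alternatives that use an adjusted p, the calls of *chk-1* against *smg-1* were unchanged (adjusted p = 0.00177 to 0.0421, limma, edgeR or DESeq2), *cep-1* and *brc-1* were called in 16 each, *chk-1* against *smg-2* in 13 (adjusted p = 0.0180 to 0.192), and *chk-2* against N2 in 0 (adjusted p = 0.0584 to 0.338). Replicate numbers come from the labels. Replicate differences of equal numbers correlated at -0.266 (*clk-2* and N2) to 0.0955. The negative value means that replicate differences in *clk-2* and N2 tended to run in opposite order. Equal numbers were not taken as a pairing in the main fit, and whether libraries share a batch was not tested. The replicate block gave 0 of the 8 genes higher against *smg-2* where 1 was reported, 3 wider genes higher in *clk-2* against N2 where 6 were, and 7 wider genes lower in *smg-1* against N2 where 12 were. The crossed pairing, chosen after seeing the data, gave 1 of the 8 genes lower against *smg-2*.

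In *clk-2* against N2, wider genes higher numbered 2 with DESeq2, 1 with only the 4 libraries compared and 1 under the 2-fold rule. In *smg-1* against N2, wider genes lower numbered 7 with TMM factors, 4 with only the 4 libraries compared and 0 under the 2-fold rule, and a mean of at least 100 gave 1 of the 8 genes lower. Under the 2-fold rule the counts were 0 of the 8 genes higher against each *smg* mutant, 1 wider gene higher and 1 lower against *smg-1*, 0 higher and 1 lower against *smg-2*, and 1 and 2 wider genes higher in *smg-1* and *smg-2* against N2. The 2-fold rule asks for a larger difference by construction. For the other settings the cause was not tested.

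Leaving out 1 library at a time gave these ranges. In *clk-2* against N2, 1 to 7 wider genes were higher and 0 to 2 lower. Against *smg-1*, 1 to 3 of the 8 genes were higher, and 9 to 36 wider genes were higher and 1 to 4 lower. Against *smg-2*, 0 to 1 of the 8 were higher and 0 to 1 lower, and 0 to 17 wider genes were higher and 2 to 5 lower. In *smg-1* against N2, 0 to 3 of the 8 were lower, and 1 to 5 wider genes were higher and 0 to 22 lower. In *smg-2* against N2, 2 to 5 wider genes were higher and 0 to 4 lower.

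Signs turned only for values that were not called. Under quantile normalization they were *rad-51* -0.004103 in *clk-2* against N2, *mrt-2* 0.13 and *chk-2* 0.052 against *smg-1*, *mrt-2* 0.028 against *smg-2*, and *mrt-2* -0.075 and *chk-2* -0.061 in *smg-2* against N2. In *smg-1* against N2, *mrt-2* was 0.029 with TMM factors, 0.022 with edgeR and 0.0003558 with DESeq2, and *chk-2* in *smg-2* against N2 was -0.000332 with edgeR. With 1 library left out, values in *clk-2* against N2 ran from -0.027 to 0.11 for *brc-1*, -0.15 to 0.18 for *rad-51*, -0.25 to 0.067 for *mrt-2* and -0.092 to 0.32 for *cep-1*. Those of *clk-2* against *smg-1* ran from -0.27 to 0.086 for *chk-2*, and those against *smg-2* from -0.031 to 0.38 for *hus-1*. In *smg-1* against N2 they ran from -0.17 to 0.15 for *mrt-2* and from -0.11 to 0.35 for *hus-1*. In *smg-2* against N2 they ran from -0.13 to 0.14 for *chk-2*, -0.27 to 0.14 for *cep-1*, -0.29 to 0.048 for *rad-51*, -0.067 to 0.39 for *hus-1* and -0.093 to 0.22 for *mrt-2*. In *clk-2*, replicate 1 and the library at 25°C had the fewest reads, which limits *mrt-2* most.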

Other observations

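The levels of partner proteins' mRNAs were also set against each other per kilobase of exon, a comparison chosen after the values were seen and given without a test. The ratio of *hus-1* to *mrt-2*, both subunits of the checkpoint clamp, was 2.68 and 3.40 in *clk-2* at 20°C, 2.43 and 2.47 in *smg-1*, 2.29 and 2.51 in *smg-2*, and 2.35 and 2.13 in N2. At 25°C it was 3.07 in *clk-2* and 2.31 in N2, so all 3 *clk-2* libraries were above the other 7. The ratio of *brc-1* to *brd-1*, the subunits of a ubiquitin ligase, was 1.63 and 1.45 in *clk-2* at 20°C, 1.17 and 1.27 in *smg-1*, 1.44 and 1.54 in *smg-2*, and 1.51 and 1.42 in N2, with 1.71 in *clk-2* and 1.38 in N2 at 25°C. The *smg-1* libraries were the lowest of the 10 in this ratio.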
